A study of Mus musculus with 6 samples.

Results

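The comparison described here sets livers taken at the start of the dark phase against livers taken at the start of the light phase, by the level of disome footprints on each gene. Its members are 4 of the 6 libraries of the series, 2 from zeitgeber time 12 (ZT12, hours after lights on) and 2 from ZT0, and the 8355 of 8941 listed genes whose mean over the 6 libraries was at least 1 RPKM (reads per kilobase of coding sequence after scaling of each library). The other 586 genes were not tested. All animals were male C57BL/6JRj mice aged 11 to 12 weeks, an inbred strain, with no genetic change and no treatment named. They were held for 2 weeks under 12 h of light and 12 h of darkness, and were also sampled under that cycle. Each library came from a pool of 2 livers, so single animals cannot be told apart and n counts pools. The 2 libraries from ZT2 entered the fit only through the estimate of the spread between libraries, and their levels are given below beside the others.

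A disome footprint is a piece of messenger RNA shielded from nuclease by a pair of ribosomes that have run up against each other. Its amount on a gene can change with the amount of messenger RNA, with how often that RNA is translated and with how readily ribosomes queue on it, and disome tables alone do not separate these. Mouse liver carries a circadian clock, a loop in which transcription factors drive their own repressors, and it also follows daily feeding, which in mice falls mostly in the dark. Genes for lipid, sugar, bile acid and drug metabolism are well known to cycle in this tissue. The deposited tables list Ensembl identifiers without symbols, and 0 of 8941 identifiers could be paired with a name in the reference gene table used here. Changes are therefore given by identifier for the 2 largest rises and the 2 largest falls, and otherwise by rank, level and course. The gene lists for pathways and for cell types of the liver could not be read, so the tissue label was not checked against marker genes. In whole liver, fewer cells of a type and less RNA per cell cannot be told apart.

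Whole reads could be recovered from the steps of the RPKM values. They totalled 7197462 and 7816463 at ZT0 and 12322651 and 11904184 at ZT12, so the ZT12 libraries were the deeper ones. Pearson's r of log2(RPKM + 1) between the libraries of a time point, taken across genes, which are not independent replicates, was 0.989 at ZT0 and 0.976 at ZT12, against 0.948 at ZT2. ZT12 replicate 2 listed 52 genes at 0, where ZT12 replicate 1 and both ZT0 libraries listed 4 each. The ZT2 libraries, which add to the estimate of the spread, listed 97 and 250 genes at 0.

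Disome levels of 79 genes differed between ZT12 and ZT0, with 33 higher and 46 lower at ZT12, a split that was 42 and 41 when each library was scaled to the same summed RPKM. The 79 genes are 0.946% of the genes tested, 0.395% higher and 0.551% lower, in limma's moderated test at a Benjamini-Hochberg adjusted p of 0.05. The median log2 change over all tested genes was -0.01, with a middle range from -0.31 to 0.28. Each library was scaled by a constant near its upper quartile of reads per gene. A change shared by all genes would therefore not show in these values. Among the genes that rose, 17 had a log2 change of 1 to 2, 13 of 2 to 3 and 3 of over 3. Among those that fell, 1 was under 1 in size, 27 were at 1 to 2, 13 at 2 to 3 and 5 over 3. The libraries of the time points did not overlap in any of the 79 genes, as was the case for 54.4% of all tested genes, 26.6% with ZT12 above and 27.8% with ZT12 below. For 27 of the genes that rose and 30 of those that fell, the 95% interval of the log2 change, unadjusted for the number of genes, lay wholly beyond a 2-fold change. The count of calls depended on the libraries in the fit. With only the ZT0 and ZT12 libraries it was 282, and all 79 genes were among them. Leaving out ZT2 replicate 1 gave 283 and leaving out ZT2 replicate 2 gave 282, but the count was 5 without ZT0 replicate 1, 3 without ZT0 replicate 2, 8 without ZT12 replicate 1 and 5 without ZT12 replicate 2.

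**Figure D1:**
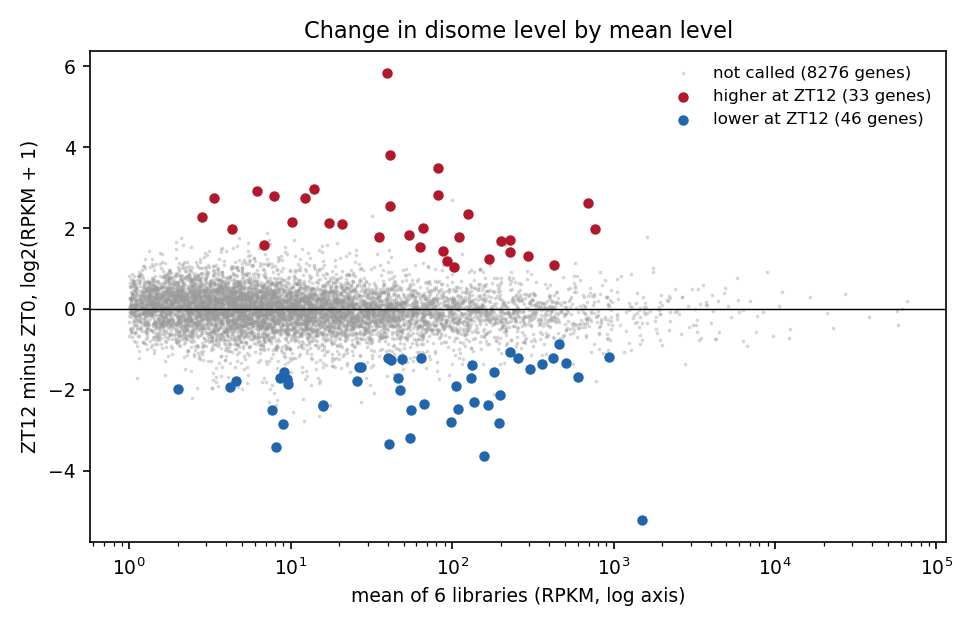
Log2 change from ZT0 to ZT12 on the log2(RPKM + 1) scale (vertical axis) against the mean RPKM of the 6 libraries (horizontal axis, logarithmic), 1 point per tested gene. The 33 genes called higher and the 46 called lower lie mostly at intermediate levels, with a median of 63.0 and 59.7 RPKM, and 1 of the 79 lies above 1000 RPKM.

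The largest rise was in ENSMUSG00000026475. It had 0.235 and 1.94 RPKM in the ZT0 libraries, from 1 and 9 reads, and 73.4 and 157.2 RPKM in the ZT12 libraries, from 580 and 1170 reads. Both ZT12 libraries lay far above both ZT0 libraries, and they also stood apart from each other. Its ZT2 libraries stood apart too, at 0.0 and 5.16 RPKM from 0 and 24 reads, and their spread entered the SE. Limma gave a log2 change of 5.83 ± 0.85 (SE, adjusted p = 0.0294), with a 95% interval from 3.83 to 7.83. On the ZT0 and ZT12 libraries alone the log2 change was the same, and limma's adjusted p was 0.00514. The size depended on the pseudocount of 1 added before taking logs, as it was 7.02 at 0.1 and 4.23 at 5. In 7 of 19 alternatives the call was lost, where limma's adjusted p reached 0.273. It was lost without either ZT0 library and without either ZT12 library, at a log2 change of 5.21 to 6.46.

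The second largest rise was in ENSMUSG00000022389. Its ZT0 libraries held 9.31 and 4.90 RPKM, its ZT2 libraries 8.7 and 2.71 RPKM and its ZT12 libraries 129.8 and 91.1 RPKM. The lowest ZT12 value was thus well clear of the highest ZT0 value, and the ratio of the means was 15.6. Limma gave a log2 change of 3.82 ± 0.49 (SE, adjusted p = 0.0208). In 5 of 20 alternatives the call was lost, where limma's adjusted p reached 0.189. Among these were the fits without either ZT0 library and without either ZT12 library, in which the log2 change was 3.41 to 4.22.

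The rise with the smallest adjusted p was a gene of higher level, picked out here after its values were seen. It held 262.4 and 245.2 RPKM at ZT0 and 1582.4 and 1566.2 RPKM at ZT12, and its ZT2 libraries lay with ZT0 at 267.3 and 243.9 RPKM. Replicates of each time point were close together, and the log2 change of 2.63 had an SE of 0.15 (limma, adjusted p = 0.000935). By size this was the 10th of the 33 rises.

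The largest fall was in ENSMUSG00000038754. Its ZT0 libraries held 2632.3 and 2622.3 RPKM, from 15080 and 16435 reads, and its ZT12 libraries 68.3 and 70.5 RPKM, from 727 and 708 reads. Within ZT0 and within ZT12 the libraries nearly coincided, and between these time points the level differed 37.9-fold. The ZT2 libraries lay at 1668.9 and 1949.5 RPKM. Limma gave a log2 change of -5.22 ± 0.15 (SE), with a 95% interval from -5.59 to -4.86 and the smallest adjusted p of the comparison, 2.61e-05. It kept its call in all 20 alternatives, at a log2 change between -5.25 and -5.14. This gene alone held 20.7% of the ZT0 reads on the 46 genes that fell.

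The second largest fall was in ENSMUSG00000058672, from 213.6 and 236.8 RPKM at ZT0 to 18.8 and 15.5 RPKM at ZT12. Both ZT12 values were far below both ZT0 values, and the ratio of the means was 13.1. Limma gave a log2 change of -3.64 ± 0.21 (SE, adjusted p = 0.000935). This call also held in all 20 alternatives, where limma's adjusted p reached 0.0381. Its ZT2 libraries, at 266.7 and 197.2 RPKM, lay on both sides of the ZT0 values.

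**Figure D2:**
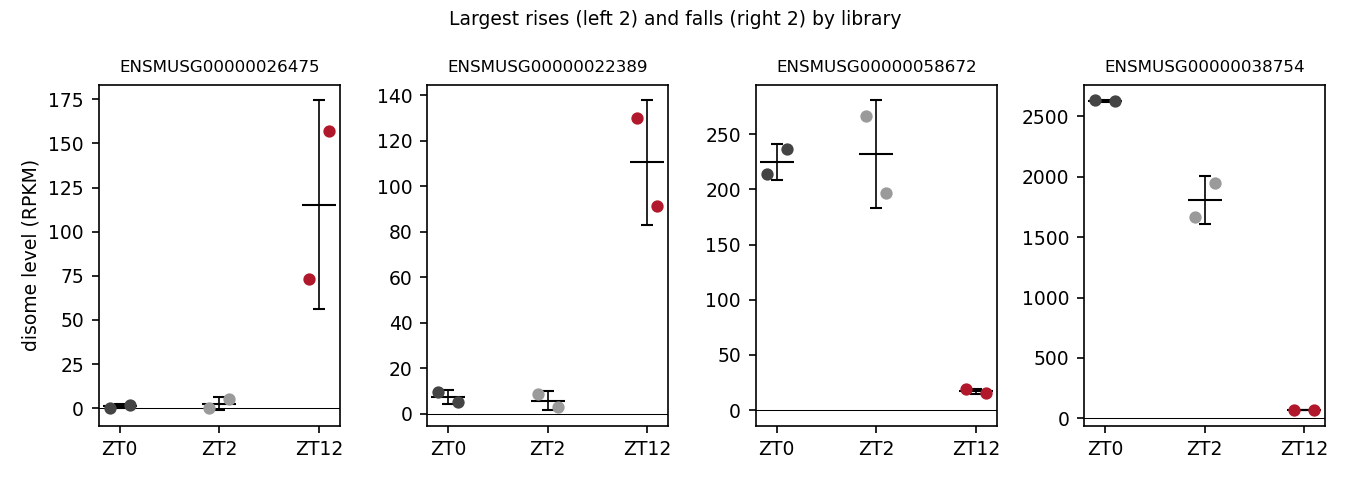
Disome level in RPKM (vertical axis, linear and separate for each gene) at ZT0, ZT2 and ZT12 for the genes with the 2 largest rises and the 2 largest falls; points are libraries, and bars give the mean ± SD of 2 libraries. The ZT12 points of ENSMUSG00000038754 lie at 68.3 and 70.5 RPKM against 2632.3 and 2622.3 RPKM at ZT0, while those of ENSMUSG00000026475 are spread from 73.4 to 157.2 RPKM.

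The genes called lay mostly above the median tested gene, which had 8.63 RPKM over the 6 libraries, at both time points. The median of the 33 rising genes went from 21.3 RPKM at ZT0 to 116.2 RPKM at ZT12, and that of the 46 falling genes from 88.3 to 21.7 RPKM. In 7 of the genes that rose and 9 of those that fell, the mean was at least 100 RPKM at both time points. These values describe genes chosen by the same contrast. Depth behind the calls varied, as 17 of the 33 genes that rose and 29 of the 46 that fell had at least 100 recovered reads in each of the 4 libraries. In 3 of the genes that rose and 3 of those that fell, a library held under 10 reads.

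Calls were spread unevenly over disome levels. At a mean of 1 to 10 RPKM, 16 of 4429 genes were called (0.361%), at 10 to 100 RPKM 32 of 2919 (1.10%), and at 100 to 1000 RPKM 30 of 881 (3.41%), against 0.946% overall. At 1000 RPKM and over, 1 of 126 genes was called (0.794%), the largest fall given above. From the lowest to the highest of these 4 classes, the share of genes over 2-fold was 5.28%, 6.20%, 6.47% and 4.76%, and the median SE of the log2 change was 0.33, 0.25, 0.19 and 0.20. Tested genes were also divided by coding length into 4 classes of nearly equal number. These lengths were recovered from the RPKM values, and some may be too short. On the shortest coding sequences, 54 to 819 nucleotides, 30 of 2089 genes were called (1.44%), 9 higher and 21 lower. The next class, up to 1329 nucleotides, had 16 calls (0.766%) and the one after it, up to 2094 nucleotides, had 27 (1.29%). On the longest, 2094 to 26397 nucleotides, 6 of 2089 genes were called (0.287%), 4 higher and 2 lower, so the share called did not fall steadily with length. Median RPKM differed between these classes too, at 21.7 for the shortest and 4.03 for the longest, and its part in the counts was not tested.

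Beyond the 79 genes, a further 400 had a log2 change of over 1 in size without passing the test, 165 upward and 235 downward. Their median SE was 0.34, against 0.24 for the called genes over 2-fold. The ZT0 and ZT12 libraries did not overlap in 387 of them, against 54.4% of all tested genes, but a change over 2-fold by itself makes overlap unlikely, so nothing is read from this count. At the other end, 2490 of the 3926 genes at 10 RPKM or more on average (63.4%) had a 95% interval of the log2 change, unadjusted for the number of genes, that lay wholly within a 2-fold change either way. For genes under 10 RPKM the pseudocount pulls the log2 change toward 0, so the same count is not read there.

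The genes with the most disome footprints had log2 changes of under 1 in size, as had most tested genes (478 of 8355 were over 1). Of the 15 genes with the highest mean over the 4 libraries, 8620 RPKM or more, 6 were higher and 9 lower at ZT12, with log2 changes from -0.72 to 0.91. None passed limma's test (0 of 15, against 0.946% overall), 4 of the 15 had an unadjusted p under 0.05, as had 14.5% of all tested genes, and the smallest adjusted p was 0.139. For 8 of the 15 the 95% interval lay within a 2-fold change, as it did for 65.9% of the genes at 1000 RPKM and over. The gene ranked 14th had the largest change of the 15. It held 6433 and 6392 RPKM at ZT0 and 10675 and 13685 RPKM at ZT12, so its libraries did not overlap. The gene ranked first held 70328 and 65684 RPKM at ZT0 and 62683 and 41774 RPKM at ZT12, where ZT12 replicate 2 lay below the other 3 libraries. The gene ranked 10th differed by more within ZT0, at 15182 and 6325 RPKM, than between the time points, at a log2 change of 0.43 with an interval from -0.49 to 1.35.

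Together the called genes held a small part of all disome reads. The 33 genes that rose held 0.276% and 0.242% of reads at ZT0 and 0.962% and 1.14% at ZT12. The 46 genes that fell held 1.00% and 1.02% at ZT0 and 0.320% and 0.307% at ZT12. Since these genes were chosen by the same contrast, the direction of these shares was set by the choice. Exact Clopper-Pearson 95% intervals, which cover counting error only, were narrow, for example 0.2718% to 0.2794% and 1.132% to 1.144% for the first and the last value of the genes that rose. The ZT2 libraries, which the contrast did not use for direction, held 0.266% and 0.258% on the genes that rose and 0.960% and 0.962% on those that fell. Their shares were thus close to those at ZT0 for both sets of genes.

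**Figure D3:**
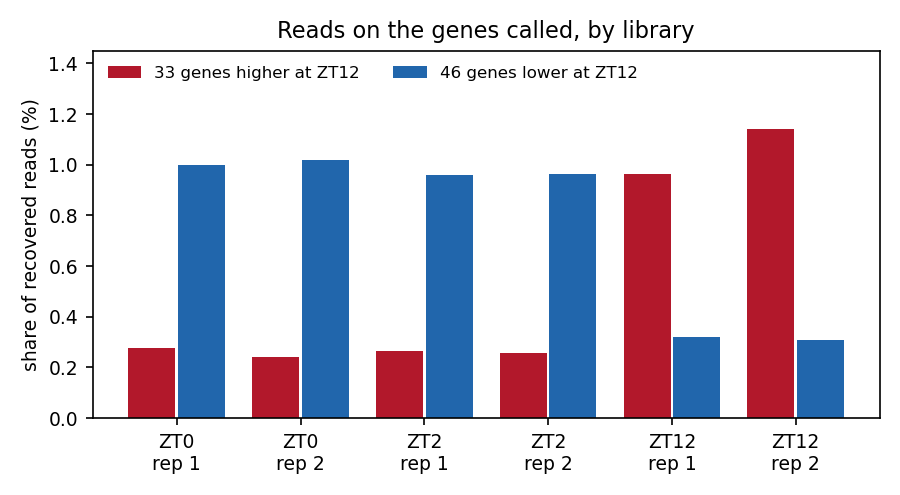
Share of all recovered reads in percent (vertical axis, from 0) on the genes called higher and the genes called lower at ZT12, in each of the 6 libraries. The genes that rose go from 0.276% and 0.242% at ZT0 to 0.962% and 1.14% at ZT12, and the genes that fell from 1.00% and 1.02% to 0.320% and 0.307%. These directions were set by the choice of genes. The ZT2 libraries lie beside those of ZT0.

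Gene by gene, ZT2 also lay nearer ZT0. Placing the ZT0 mean at 0 and the ZT12 mean at 1 on the log2(RPKM + 1) scale, the median position of ZT2 was 0.07 for the genes that rose and 0.10 for those that fell. The ZT2 mean was nearer to ZT0 in 29 of the 33 genes that rose and 43 of the 46 that fell, together 91.1%, compared with 54.4% of all tested genes. This is a description without a test, since the position uses the same ZT0 and ZT12 libraries as the call. Most tested genes differed little between ZT0 and ZT12 (middle range of the log2 change -0.31 to 0.28). The side on which their ZT2 mean fell is poorly defined, so 54.4% is not a like share. Both ZT2 libraries were on the ZT0 side of both ZT12 libraries in 32 of the genes that rose and in all 46 that fell. Among the genes that rose, both ZT2 libraries were above both ZT0 libraries in 13 and below them in 4. Among those that fell, both were below the ZT0 libraries in 19 and above them in 10. These library counts were not taken over all tested genes. Genes chosen for a wide gap between ZT0 and ZT12 also favour separation of ZT2 from ZT12, so nothing is read from them.

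The ZT2 mean lay outside the range between ZT0 and ZT12 in 12 of the 33 genes that rose, 11 beyond ZT0 and 1 beyond ZT12. It did so in 14 of the 46 that fell, each beyond ZT0. The share over all tested genes was not counted. The genes described next were picked after their values were seen. In 1 of the genes that rose the ZT2 mean exceeded that at ZT12. This gene started from 82.7 and 82.2 RPKM at ZT0, reached 221.9 and 247.6 RPKM at ZT2, and was at 184.6 and 203.2 RPKM by ZT12. Its log2 change from ZT0 to ZT12 was 1.22 ± 0.16 (SE, limma adjusted p = 0.0209). Of the genes that fell, the one farthest from the line between ZT0 and ZT12 started from 131.8 and 124.2 RPKM at ZT0, reached 283.5 and 412.6 RPKM at ZT2, and was at 20.2 and 28.2 RPKM by ZT12. Its log2 change from ZT0 to ZT12 was -2.38 ± 0.24 (SE, limma adjusted p = 0.012). The smallest change among the 79 genes was of this kind too, from 482.4 and 460.5 RPKM at ZT0 through 644.1 and 639.2 RPKM at ZT2 to 254.6 and 258.8 RPKM at ZT12.

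**Figure D4:**
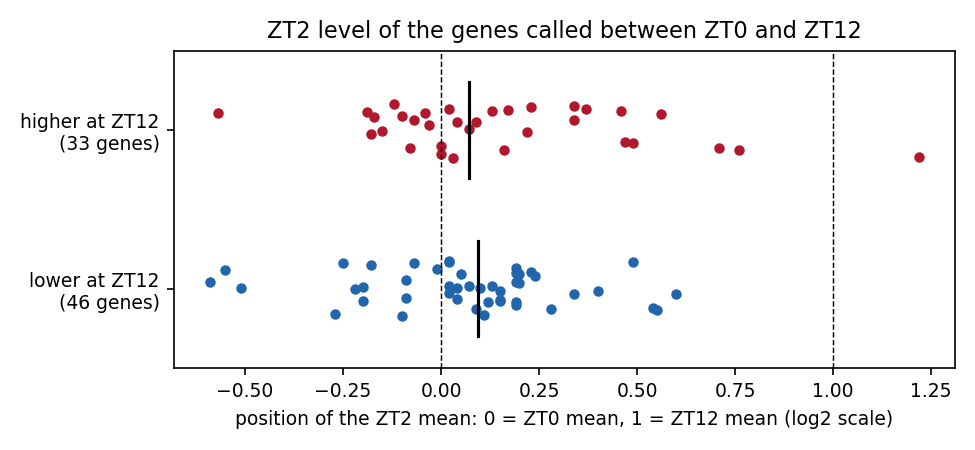
Position of the ZT2 mean between the ZT0 mean (0) and the ZT12 mean (1) on the log2(RPKM + 1) scale (horizontal axis), 1 point per called gene, for the 33 genes higher and the 46 lower at ZT12; points are spread vertically for legibility and black bars give medians. The medians are 0.07 and 0.10, and the points run from -0.57 to 1.22 and from -0.59 to 0.60.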

How the data were processed

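The authors deposited 1 table of RPKM values per library, with Ensembl identifiers and no header. The submitters' processing notes name the tools Bowtie2 2.3.0, CASAVA 1.82, STAR, cutadapt, edgeR and StringTie and the builds mm10 and GRCm38.p2. Which tool did what, the annotation and the gene filter are not given in those sources. Per the labels' protocols, livers were lysed with cycloheximide, and 650 U RNase I acted on the pooled lysates for 45 min before size exclusion and ribosomal RNA depletion. Ratios of RPKM within a gene were those of whole numbers times 1 constant per library, near the upper quartile of reads per gene (0.9854 to 0.9957 times the constant), from which reads and coding lengths were recovered. A factor common to all 6 reads of a gene is lost in this step, from its length as well. In 74 genes this was corrected where the length was no whole number of nucleotides. Some reads and coding lengths may therefore remain too low.

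limma 3.58.1 in R 4.3.3 was fitted to log2(RPKM + 1), with a mean per time point, a variance trend, 3 residual degrees of freedom and Benjamini-Hochberg adjustment over 8355 genes. The scale understates changes of low genes. The fit was tested on simulated data. Genes were named by size of change among those called, with at most 2 identifiers per direction. The comparison, its members and the gene lists were chosen with earlier results of these data known; 30 functional and 10 cell type lists were not tested, because no identifier matched (0 of 8941 against 49997 reference genes), and no promoter was printed for the same reason. Monosome footprints and total RNA were not analysed here.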

Additional observations from a re-analysis of the deposited data

How the results depend on the processing

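The direction of the 4 genes given by identifier did not change in any of 79 alternative values, and 67 kept the call. These genes were chosen for the largest changes of the same contrast, so a reversal was unlikely from the start. The alternative at an adjusted p of 0.1 read the main fit at a looser threshold and could lose no call. Array weights and the removal of genes listed at 0 were chosen after seeing the data. In every alternative the ZT2 position was taken from log2(RPKM + 1) of all 6 libraries. Its counts changed only through the genes called, and the position itself was not checked. The main counts were 79 called, 33 higher, 46 lower and 72 with ZT2 nearer ZT0. In the same order they were 32, 11, 21 and 29 without the variance trend, 282, 108, 174 and 224 on the ZT0 and ZT12 libraries alone, 179, 64, 115 and 149 at an adjusted p of 0.1, 283, 105, 178 and 215 with voom on recovered reads, and 414, 154, 260 and 315 with array weights, which were 2.094 for ZT0, 0.473 for ZT2 and 1.009 for ZT12. A filter at 5 RPKM gave 124 called and 76 lower, quantile normalization 50 higher, and the removal of genes listed at 0 gave 72 lower. For these shifts the cause was not tested. Leaving out 1 library in turn gave 3 to 283 called, 1 to 107 higher, 2 to 176 lower and 3 to 226 nearer ZT0, with a lone library assumed to vary like the other groups. Deviations of same-numbered libraries correlated across genes at -0.019 for ZT0 and ZT12, -0.076 for ZT0 and ZT2, and 0.018 for ZT2 and ZT12. These values over all genes cannot tell whether the replicate number marks a pairing that affects some genes. A fit with this number as a replicate block gave 51 called, 24 higher, 27 lower and 46 nearer ZT0. Of the 51 genes, 50 were among the 79. Pseudocounts of 0.1 and 5, no filter, scaling to the same sum and the robust prior kept the counts within 1.5 times. Scaling to the same summed RPKM gave 42 higher and 41 lower, so the excess of falls over rises (41.8% of calls higher, against 50.6% here) depends on the scaling. The gene list and promoter alternatives were not run, since no identifier could be matched. The ZT0 and ZT12 libraries held 7197462 to 12322651 reads each. The median SE, with a spread estimated from all 6 libraries, was 0.33 for genes at 1 to 10 RPKM and 0.19 at 100 to 1000 RPKM. The part of read depth in this was not tested.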
